A study of Mus musculus with 12 samples.

Results

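The glycerol phosphate shuttle and the malate-aspartate shuttle are represented by 10 genes, *Gpd1*, *Gpd1l*, *Gpd2*, *Slc25a11*, *Slc25a12*, *Slc25a13*, *Mdh1*, *Mdh2*, *Got1* and *Got2*, out of 55536 genes quantified in cultured mouse oligodendrocyte precursor cells (OPCs). They were taken by name from the known make-up of both shuttles, and the estimated reads of all transcripts of a gene were added together in each library. The set was chosen by pathway but selected on the measured dexamethasone difference of *Gpd1*, with that of *Slc25a13* also in view, so those values are given as a description, with no test. All 10 genes had enough reads to be tested, among 17919 genes that did.

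Cultures were compared by total RNA-seq in 3 groups of 4 replicates, each from another litter. Brains of several pups aged P4 to P6 were pooled for each experiment, and the cells were obtained either by sorting for the Sox10-GFP reporter (Cre under the *Sox10* promoter switching on EGFP from the RCE:loxP allele) or with magnetic beads against CD140a, and were grown with the growth factors PDGFaa and bFGF. Which of the isolation methods gave which library is not stated in the labels. Ctr-OPCs received no treatment, Dexa-treated OPCs received the synthetic glucocorticoid dexamethasone at 1 µM for 48 h, and IFN-γ-treated OPCs received the cytokine IFN-γ at 100 ng/ml for 48 h. The mouse model tag of every library reads EAE, an autoimmune disease model induced in adult mice, although the cells are pup cultures.

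NADH made by glycolysis in the cytosol cannot cross the inner mitochondrial membrane, and the shuttles carry its electrons inwards. In the glycerol phosphate shuttle a cytosolic dehydrogenase (GPD1 or its relative GPD1L) reduces dihydroxyacetone phosphate to glycerol 3-phosphate, which the FAD-linked enzyme GPD2 oxidizes again on the inner membrane. In the malate-aspartate shuttle, malate dehydrogenases (MDH1 in the cytosol, MDH2 in the matrix) and aspartate aminotransferases (GOT1 in the cytosol, GOT2 in the matrix) work with the oxoglutarate-malate carrier SLC25A11 and the aspartate-glutamate carriers SLC25A12 (aralar) and SLC25A13 (citrin). Glycerol phosphate dehydrogenase activity is a classical glucocorticoid-inducible marker of oligodendroglia, and glycerol 3-phosphate is also the backbone of membrane phospholipids.

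The 11 complete libraries held 19209059 to 52074655 reads in genes, so that even *Slc25a13*, the gene with the lowest level per length of the set, was measured mainly with the spread between litters. The table of Dexa replicate 3 stops after 33.7% of the transcripts. It lists *Gpd1*, *Slc25a11* and *Mdh1* whole and entered no fit over all genes, which compared 4 Ctr, 3 Dexa and 4 IFN-γ libraries. The treatments were checked on their textbook targets: *Fkbp5* and *Per1* were at 120 ± 18.8 and 34.7 ± 1.75 counts per 1000000 reads (CPM) in Dexa-treated OPCs against 43.2 ± 7.30 and 10.7 ± 1.24 in Ctr-OPCs (SD, n = 3 and 4), and *Irf1* was at 707 ± 22.9 CPM in IFN-γ-treated OPCs against 10.9 ± 0.978 (SD, n = 4 each). All 8 OPC markers were expressed, with *Pdgfra* at 566 to 3430 CPM, while microglial *Cx3cr1*, *Aif1*, *C1qa*, *C1qb* and *C1qc* had at most 4 reads in any library. The other microglial markers, *P2ry12*, *Csf1r* and *Tmem119*, had at most 33, 18 and 13 reads, and *P2ry12* and *Csf1r* had enough to be tested. With IFN-γ 15.3% of all genes were called lower and 16% higher at an adjusted p under 0.05 in the edgeR fit with the replicate block, and the markers were counted in that fit too. Of the OPC markers 5 of 8 were lower and 0 higher in IFN-γ-treated than in Ctr-OPCs. Their summed level was 3883 to 9052 CPM against 5589 to 13064. Much of the change in this sum was *Gpr17*, at 64.0 to 1301 CPM against 448 to 4831. *Ptprz1* went the other way in each replicate, at 1740 to 2695 CPM against 1632 to 1981, so the sum does not describe every OPC marker. Of 10 markers of differentiating oligodendrocytes, 9 could be tested and 4 were lower, with summed levels of 237 to 806 against 340 to 2213 CPM. Of 7 astrocyte markers 3 were higher and 2 lower, with summed levels of 1039 to 1587 against 511 to 1517 CPM. The part of these markers in the results that follow was not tested, and in bulk samples fewer cells of a type and less RNA per cell cannot be told apart.

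The bases just upstream of the members' transcription starts are shown as a description. RefSeq windows on GRCm38.p6 were found for 9 of the 10 genes (10 windows), *Gpd1* being the one without an entry. Each line gives bases before the start, 5′ to 3′ on the strand of the gene, up to 250 and only as far as no annotated transcript of the gene begins. Capitals mark the CCAAT box (CCAAT or its complement ATTGG), bound by NF-Y, and TCTCGCG or its complement CGCGAGA, the core of the element bound by BANP. *Slc25a12* (chr2:71367756-71368005, minus strand) and *Slc25a13* (chr6:6217174-6217423, minus strand) are the paired aspartate-glutamate carriers, *Got1* (chr19:43524606-43524855, minus strand) rose with IFN-γ, and *Mdh2* (chr5:135778399-135778479, plus strand) did not pass the test in either treatment.
Slc25a12: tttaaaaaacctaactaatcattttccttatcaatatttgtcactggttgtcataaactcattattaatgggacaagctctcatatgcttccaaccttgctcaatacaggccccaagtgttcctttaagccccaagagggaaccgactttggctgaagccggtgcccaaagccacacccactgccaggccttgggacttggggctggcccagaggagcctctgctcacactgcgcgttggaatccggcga
Slc25a13: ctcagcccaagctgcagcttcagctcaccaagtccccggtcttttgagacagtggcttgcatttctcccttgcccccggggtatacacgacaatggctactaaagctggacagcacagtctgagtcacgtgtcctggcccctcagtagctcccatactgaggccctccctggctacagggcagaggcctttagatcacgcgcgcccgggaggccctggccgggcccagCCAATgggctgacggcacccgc
Got1: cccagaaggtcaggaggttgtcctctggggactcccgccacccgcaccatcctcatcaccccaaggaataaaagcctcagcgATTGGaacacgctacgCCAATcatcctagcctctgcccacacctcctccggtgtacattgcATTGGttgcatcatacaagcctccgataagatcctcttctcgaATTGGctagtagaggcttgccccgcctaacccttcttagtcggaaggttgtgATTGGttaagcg
Mdh2: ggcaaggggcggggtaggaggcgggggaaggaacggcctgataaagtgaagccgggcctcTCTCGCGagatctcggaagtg

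The *Got1* window held 5 CCAAT boxes, a number reached by 0.213% of 32851 mouse windows of the same length, and at least 1 was present in 5 of the 10 member windows against 33.8% of all. The whole 250-base windows of *Mdh2* and of the carrier gene *Slc25a11* each held 3 copies of the BANP core, of which 1 *Mdh2* copy lies in the printed stretch. At least 1 copy was found in 2.1% of all windows and at least 3 in 0.0304%. Overlapping matches on the opposite strands counted once, and the CCAAT and BANP letters were searched for after the windows had been read. The rates of 0.213% and 0.0304% are for any single window, while the counts beside them are the highest among the 10 member windows. They are therefore not the chance of such a count among the members. The GC box GGGCGG was in 4 of 10 member windows against 32.7% of all windows. The core TGTTCT of the glucocorticoid response element was in 0 of the 10 member windows, against 16.1% of all windows, on either strand. A match is a description of the letters only.

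Per transcript length, the malate dehydrogenases were the most abundant members and *Slc25a13* the least. In Ctr-OPCs the mean level was 132 ± 22.9 transcripts per 1000000 (TPM) for *Mdh1*, 122 ± 22.8 for *Mdh2*, 56.4 ± 3.55 for *Got2* and 38.4 ± 3.80 for *Slc25a11* (SD, n = 4). *Slc25a12* followed at 24.9 ± 3.51 TPM, *Got1* at 17.1 ± 4.41, *Gpd1l* at 16.9 ± 2.43, *Gpd2* at 10.4 ± 5.78, *Gpd1* at 6.93 ± 0.681 and *Slc25a13* at 1.98 ± 0.166. Neighbours in this order whose libraries overlapped were *Mdh1* and *Mdh2*, *Got1* and *Gpd1l*, *Gpd1l* and *Gpd2*, and *Gpd2* and *Gpd1*. All other neighbours were apart in each of the 4 libraries. *Gpd1* ranked 9 of 10 in Ctr-OPCs. These levels are sums over all transcripts of a gene, so the order is not that of coding transcripts alone. In Ctr-OPCs 24.0% and 19.3% of *Gpd2* TPM were *Gpd2-206* and *Gpd2-205*, annotated as processed transcripts and not as coding. Only 13.4% of *Slc25a12* TPM was the coding *Slc25a12-206*, while 98.1% of *Gpd1* TPM was the coding *Gpd1-201*. In Dexa-treated OPCs *Gpd1* ranked 6, at 20.2 ± 0.498 TPM (SD, n = 4), and overlapped with *Got1*, the next in order, at 18.0 ± 5.45 (SD, n = 3). In IFN-γ-treated OPCs *Gpd1* stayed at rank 9, at 4.65 ± 0.784 TPM, and now overlapped with *Slc25a13* at 3.51 ± 0.598.

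**Figure D1:**
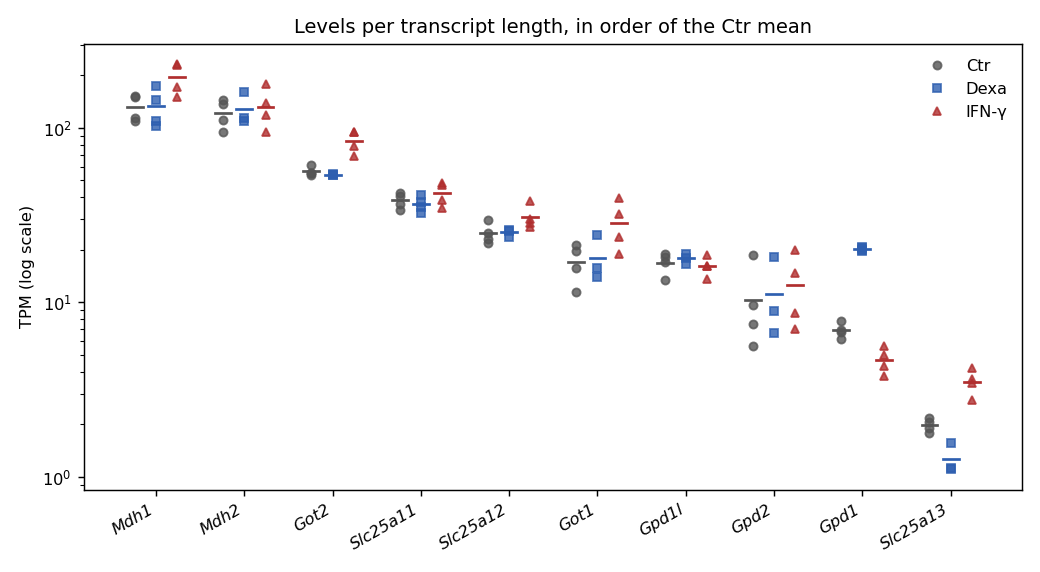
Level of each gene in TPM (log axis) in every library, with genes in order of their mean in Ctr-OPCs. Points are libraries (Ctr 4, IFN-γ 4, Dexa 4 for *Gpd1*, *Slc25a11* and *Mdh1* and 3 for the others) and bars are means, and *Gpd1* in Dexa-treated OPCs (19.6 to 20.7 TPM) stands clear of its Ctr and IFN-γ points.

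*Gpd1*, the cytosolic NAD-linked glycerol 3-phosphate dehydrogenase, lay far above Ctr-OPCs with dexamethasone and below them with IFN-γ. It lies on chromosome 15 (GRCm38, 99717515 to 99725005, plus strand) and has 3 annotated transcripts, of which the coding *Gpd1-201* took 99.8% of its reads in Ctr-OPCs. In Ctr replicates 1 to 4 it was at 31.4, 31.4, 28.5 and 26.1 CPM. In IFN-γ replicates 1 to 4 it was at 19.4, 18.7, 16.5 and 15.6 CPM, so that every treated library was below every Ctr library. The fall was 0.74 ± 0.06 on the log2 scale (SE), to 17.6 ± 1.80 from 29.3 ± 2.56 CPM (SD, 4 libraries each). The quasi-likelihood test of edgeR with the replicate as a block gave an adjusted p of 9.74e-06, and the fall was seen in 4 of 4 pairs.

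Dexa replicates 1, 2 and 4 held *Gpd1* at 83.8, 89.1 and 82.4 CPM, a mean of 85.1 ± 3.55 (SD, n = 3), which is 2.87-fold the Ctr level and a log2 difference of 1.52 ± 0.07 (SE). Both treatments were set against the same Ctr libraries. The incomplete Dexa replicate 3 listed *Gpd1* at 20.7 TPM, beside 20.0, 20.6 and 19.6 TPM in Dexa replicates 1, 2 and 4 and 6.94 TPM in Ctr replicate 3. In a fit of all 12 libraries over the 6319 tested genes that this library lists whole, the log2 difference was 1.56 ± 0.06 for dexamethasone and -0.75 ± 0.06 for IFN-γ. The direct difference between IFN-γ- and Dexa-treated OPCs was -2.26 ± 0.07 on the log2 scale, again as a description.

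*Gpd1l*, the relative of *Gpd1* with the same cytosolic reaction, and *Gpd2*, the mitochondrial partner of both, moved apart under IFN-γ. *Gpd1l* was at 98.3, 113, 109 and 112 CPM in Ctr replicates 1 to 4 and at 99.1, 93.8, 88.3 and 89.3 CPM in the IFN-γ replicates. Replicate 1 went the other way from replicates 2, 3 and 4, and the groups overlapped. *Gpd1l* fell by 0.22 ± 0.06 on the log2 scale (SE, adjusted p = 0.0219, edgeR, lower in 3 of 4 pairs), a call that was lost without the replicate block (adjusted p = 0.0979) and without any one of IFN-γ or Ctr replicates 2, 3 and 4 (adjusted p from 0.0509 to 0.0741). With dexamethasone it was at 106, 119 and 118 CPM in replicates 1, 2 and 4, a log2 difference of 0.07 ± 0.07 (95% interval -0.09 to 0.23, adjusted p = 0.792).

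*Gpd2* differed between litters more than any other member. It was at 90.3, 49.3, 28.1 and 40.1 CPM in Ctr replicates 1 to 4 and at 103, 60.2, 39.3 and 49.4 CPM in the IFN-γ replicates, higher within each of the 4 pairs while the groups overlapped almost fully. *Gpd2* rose by 0.31 ± 0.06 on the log2 scale (SE, adjusted p = 0.00203, edgeR with the replicate block). Without the block, so that litters count as spread, the adjusted p was 0.77. In Dexa replicates 1, 2 and 4 it was at 81.5, 44.9 and 38.0 CPM, a log2 difference of -0.09 ± 0.06 (95% interval -0.24 to 0.05, adjusted p = 0.654).

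**Figure D2:**
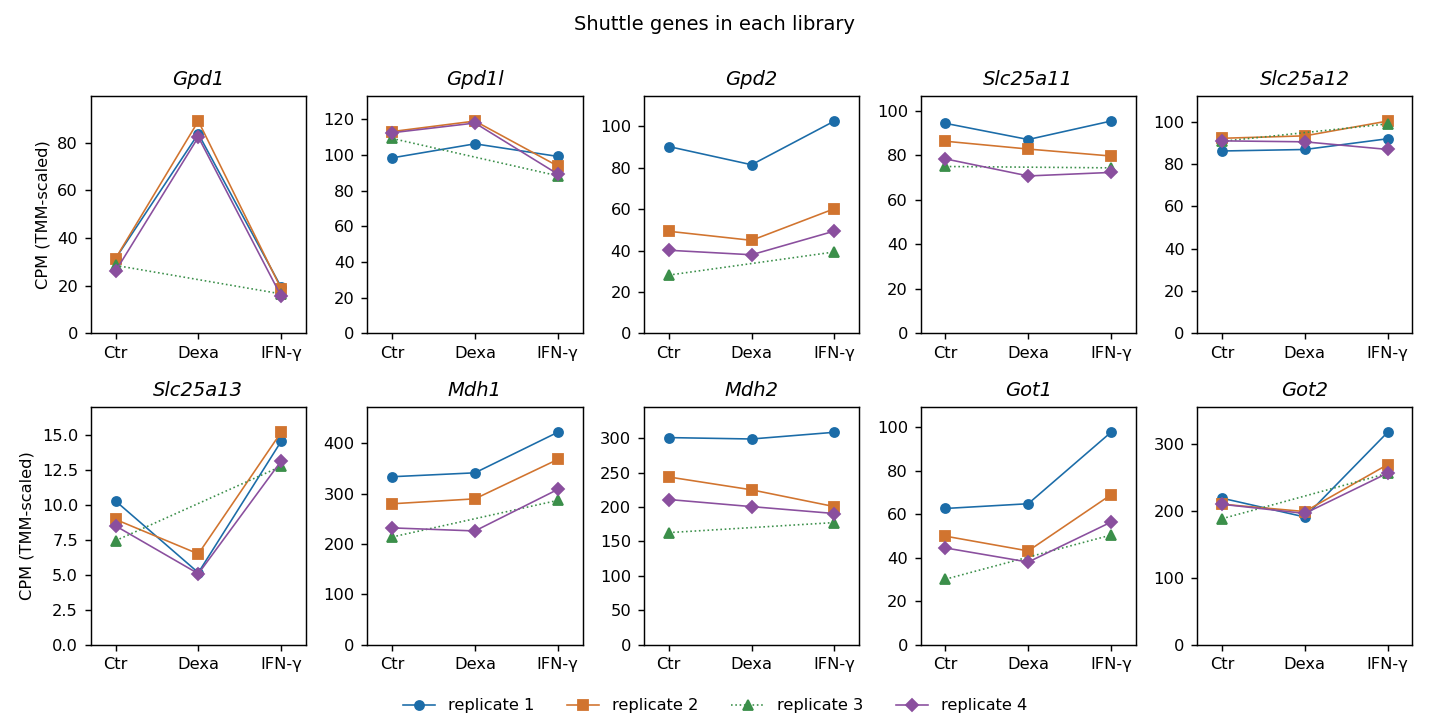
CPM of each gene in every complete library (y axes start at 0, one panel per gene), with lines joining libraries of one replicate number and a dotted line for replicate 3, which has no Dexa point. *Gpd1* peaks in Dexa at 82.4 to 89.1 CPM and is lowest in IFN-γ, and *Slc25a13* has the opposite order. *Gpd2*, *Slc25a11*, *Mdh1*, *Mdh2* and *Got1* keep replicate 1 on top in every group.

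The aspartate-glutamate carriers *Slc25a12* and *Slc25a13*, which exchange matrix aspartate for cytosolic glutamate, differed in their response. *Slc25a13* (chromosome 6, 6041218 to 6217173, minus strand) was at 10.3, 8.97, 7.45 and 8.51 CPM in Ctr replicates 1 to 4 and at 14.6, 15.2, 12.8 and 13.2 CPM in the IFN-γ replicates. No treated library overlapped with Ctr. The rise was 0.67 ± 0.09 on the log2 scale (SE, adjusted p = 0.000396, edgeR), from 8.81 ± 1.18 to 13.9 ± 1.15 CPM (SD, n = 4 each).

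With dexamethasone *Slc25a13* was at 5.15, 6.50 and 5.08 CPM in replicates 1, 2 and 4, all below the lowest Ctr library, a log2 difference of -0.71 ± 0.11 (SE) given without a test. As for *Gpd1*, its Dexa and IFN-γ libraries all lay outside the range of the shared Ctr libraries, on opposite sides. The dexamethasone side of this pattern was in view for both genes when the set was chosen, so it is a description only. Of all genes, 14.4% did not overlap with Ctr with IFN-γ and 4.29% with dexamethasone, and the share with both was not counted. *Gpd1l*, *Gpd2*, *Got1* and *Got2* also differed in sign between the treatments, but overlapped with Ctr with dexamethasone. The reads of *Slc25a13* were divided between the coding transcripts *Slc25a13-201* and *Slc25a13-203* in unsteady shares. The first took 36.9% to 79.0% in Ctr-OPCs, so only the sum over transcripts is given.

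*Slc25a12* varied least of the members between Ctr libraries, though not between IFN-γ libraries. It was at 86.1, 92.1, 90.7 and 90.9 CPM in Ctr replicates 1 to 4, at 91.9, 100, 98.9 and 86.9 CPM in the IFN-γ replicates, and at 86.8, 93.3 and 90.5 CPM in Dexa replicates 1, 2 and 4. Neither treatment passed the test, with log2 differences of 0.07 (95% interval -0.04 to 0.18, adjusted p = 0.328) and 0.02 (-0.11 to 0.14, adjusted p = 0.95). In Ctr-OPCs 54.8% of its reads were assigned to *Slc25a12-207*, annotated as a target of nonsense-mediated decay, and 36.5% to the coding *Slc25a12-206*, so its level in TPM is not that of the coding transcript alone.

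The oxoglutarate-malate carrier *Slc25a11*, which brings malate into the matrix, was at 94.3, 86.3, 74.9 and 78.3 CPM in Ctr replicates 1 to 4 and at 95.3, 79.6, 74.3 and 72.3 CPM in the IFN-γ replicates. The log2 difference was -0.06 (95% interval -0.17 to 0.05, adjusted p = 0.432, edgeR), and with dexamethasone it was -0.10 (-0.22 to 0.02, adjusted p = 0.575). A p that misses the threshold does not show equal levels here, and the intervals give the sizes that the data leave possible.

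Of the malate dehydrogenases, the cytosolic form rose with IFN-γ and the matrix form did not pass the test. *Mdh1* was at 334, 280, 214 and 232 CPM in Ctr replicates 1 to 4 and at 422, 368, 286 and 308 CPM in the IFN-γ replicates. It was higher in 4 of 4 pairs although the groups overlapped, a rise of 0.39 ± 0.05 on the log2 scale (SE, adjusted p = 0.000139, edgeR with the block, 0.258 without it). *Mdh2* was at 301, 244, 163 and 211 CPM in Ctr and at 309, 201, 177 and 191 CPM with IFN-γ, higher in 2 of 4 pairs, with a log2 difference of -0.07 (95% interval -0.21 to 0.08, adjusted p = 0.49).

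Both aspartate aminotransferases rose with IFN-γ. Cytosolic *Got1* was at 62.6, 49.9, 30.1 and 44.5 CPM in Ctr replicates 1 to 4 and at 97.7, 68.9, 50.4 and 56.3 CPM in the IFN-γ replicates, a rise of 0.55 ± 0.07 on the log2 scale (SE, adjusted p = 0.000216, edgeR with the block, 0.284 without it) in 4 of 4 pairs. Mitochondrial *Got2* was at 219, 210, 188 and 210 CPM in Ctr and at 318, 269, 256 and 257 CPM with IFN-γ. Its groups did not overlap, and the rise was 0.41 ± 0.06 (SE, adjusted p = 0.000577, edgeR).

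With dexamethasone no enzyme of the malate-aspartate shuttle passed the test. The means of *Mdh1* (286 ± 57.9 CPM, SD, n = 3) and *Mdh2* (242 ± 51.2) lack a Dexa replicate 3, the litter with the lowest Ctr values, so the paired differences are the ones to read. These were 0.02 for *Mdh1*, -0.04 for *Mdh2*, -0.10 for *Got1* and -0.12 for *Got2* on the log2 scale, with adjusted p from 0.596 to 0.931 (edgeR).

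Over the whole set, 7 of 10 genes passed the test with IFN-γ, *Gpd2*, *Slc25a13*, *Mdh1*, *Got1* and *Got2* higher and *Gpd1* and *Gpd1l* lower, where 31.3% of all 17919 genes passed (16% higher and 15.3% lower). Among the 9967 genes with a mean CPM at least that of *Slc25a13*, 37.4% passed. The median log2 difference was 0.19 over the 10 genes and -0.01 over all genes. *Gpd1*, *Slc25a13* and *Got2* had groups that did not overlap, as did 14.4% of all genes. Without the replicate block *Gpd1*, *Slc25a13* and *Got2* still passed, 3 of 10, where 8.44% of all genes passed.

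With dexamethasone 1.57% of all genes passed, 1.31% higher and 0.262% lower, and 4.29% had groups that did not overlap. Of the 8 members that could be tested, 0 passed by edgeR, 0 had an unadjusted p under 0.05 and 0 passed by DESeq2, with and without the block. Their 95% intervals together ran from -0.27 to 0.23 on the log2 scale. *Gpd1* and *Slc25a13* are not counted here.

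**Figure D3:**
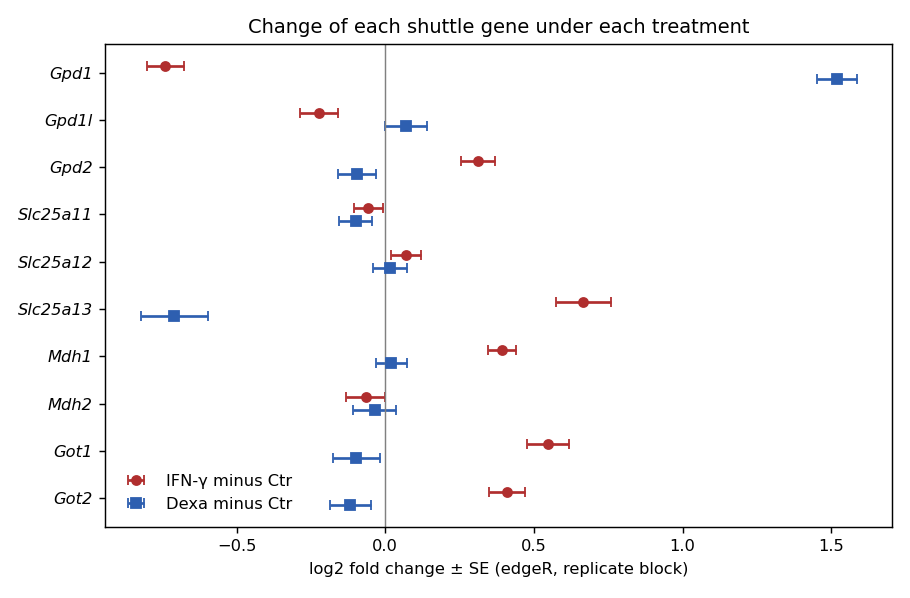
Log2 fold change (x axis) of each gene with IFN-γ (circles) and with dexamethasone (squares) against the same Ctr libraries, with bars for 1 SE from edgeR with the replicate block. *Gpd1* (-0.74 and 1.52) and *Slc25a13* (0.67 and -0.71) lie on opposite sides of 0 in the treatments, and the other 8 genes lie within 0.12 of 0 with dexamethasone. *Gpd1l*, *Gpd2*, *Got1* and *Got2* also differ in sign between the treatments.

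Set directly against each other, IFN-γ- and Dexa-treated OPCs differed in 5 of the 8 testable members, beside 33.7% of all genes. *Got1* was higher with IFN-γ by 0.65 ± 0.08 on the log2 scale (adjusted p = 0.000172), *Got2* by 0.53 ± 0.07 (0.000246), *Gpd2* by 0.41 ± 0.06 (0.000826) and *Mdh1* by 0.37 ± 0.05 (0.00045), all by edgeR with the block. Without it *Got1*, *Gpd2* and *Mdh1* did not pass (adjusted p from 0.381 to 0.851). *Gpd1l* fell by 0.29 ± 0.07 relative to Dexa (adjusted p = 0.00951), with an adjusted p of 0.0528 in a fit of these groups alone and of 0.0536 and 0.052 without Dexa replicate 2 or 4. *Slc25a13* was 1.38 ± 0.11 higher with IFN-γ, as a description.

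The balance within each pair of related genes was taken as a share of their summed TPM, which does not depend on the rest of the library. *Gpd1* made up 33.5%, 29.3%, 27.5% and 26.6% of *Gpd1* plus *Gpd1l* in Ctr replicates 1 to 4 and 23.4%, 22.9%, 21.8% and 20.9% in the IFN-γ replicates. The groups did not overlap, and the means were 29.2 ± 3.06% and 22.3 ± 1.14% (SD, n = 4 each, two-sided exact permutation test, p = 0.0286, 0.0381 adjusted over the 4 pairs of genes). When the libraries were paired by replicate number the exact p was 0.125, the smallest that 4 pairs allow, so the call is lost. In Dexa replicates 1, 2 and 4 the share was 54.6%, 53.4% and 51.0%, so that *Gpd1* was the more abundant of the pair only there.

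*Mdh1* made up 52.1 ± 1.99% of *Mdh1* plus *Mdh2* in Ctr-OPCs and 59.9 ± 2.65% with IFN-γ, and *Slc25a12* made up 92.6 ± 0.893% and 89.8 ± 1.11% of both aspartate-glutamate carriers. Each difference had the same exact permutation p of 0.0286 (0.0381 adjusted), and 0.125 when paired, where the call is lost too. *Got1* was 23.0 ± 4.29% of both aminotransferases in Ctr-OPCs and 24.9 ± 3.37% with IFN-γ (exact permutation p = 0.514). The *Got1* share was higher with IFN-γ in 4 of 4 pairs, and this p ignores the pairing. The value 0.0286 is the smallest that 4 against 4 libraries allow. With dexamethasone *Slc25a12* made up 95.3 ± 0.825%, *Mdh1* 52.7 ± 2.90% and *Got1* 24.7 ± 5.39% (SD, n = 3, not tested). The *Slc25a12* share counts all transcripts of the gene and is not a share of coding transcripts. Of *Slc25a12* TPM, the coding *Slc25a12-206* was only 13.4% in Ctr-OPCs, 11.2% with IFN-γ and 12.6% with dexamethasone.

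**Figure D4:**
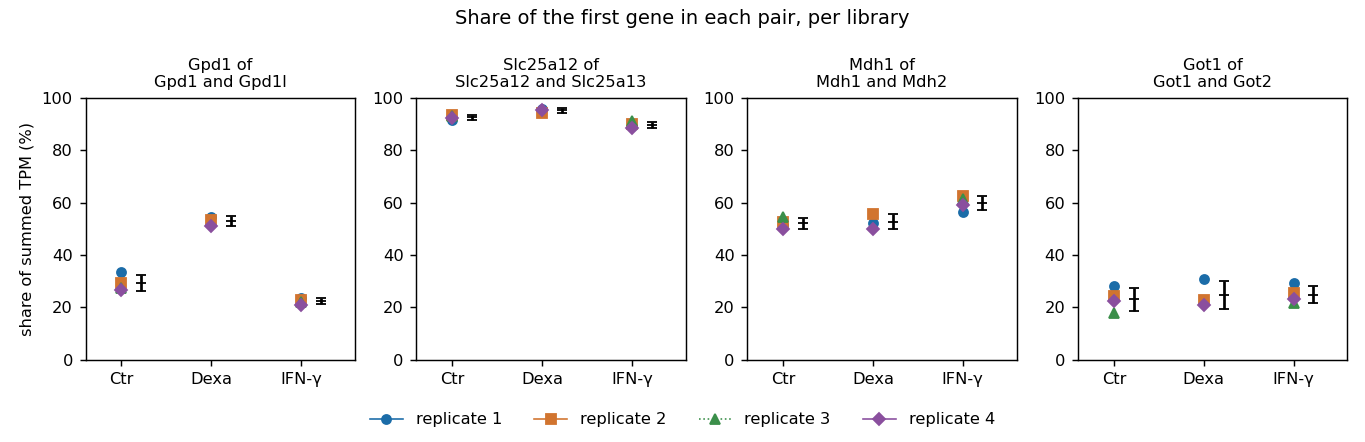
Share of the first-named gene in the summed TPM of each related pair (y axis, percent from 0 to 100), one point per library with mean and SD beside the points. *Gpd1* passes 50% of its pair only in Dexa-treated OPCs (51.0% to 54.6%), and the *Mdh1* share is higher with IFN-γ (56.5% to 62.5%) than in Ctr (49.9% to 54.5%).

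The members differed in how much they varied between litters. In Ctr-OPCs the coefficient of variation over the 4 litters was 51.9% for *Gpd2*, 28.8% for *Got1*, 25.3% for *Mdh2* and 20.3% for *Mdh1*. It was 13.4% for *Slc25a13*, 10.4% for *Slc25a11*, 8.72% for *Gpd1*, 6.31% for *Gpd1l* and *Got2* and 2.93% for *Slc25a12*. In IFN-γ-treated OPCs it was again 44.2% for *Gpd2* and 30.8% for *Got1*. Libraries of one number deviated together: *Gpd2* was 0.80 above its group mean on the log2 scale in replicate 1 and 0.67 below it in replicate 3, averaged over groups, and *Got1* was 0.50 above and 0.49 below.

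The same litters differed in marker genes. In Ctr replicates 1 to 4 the summed OPC markers were at 5589, 9458, 13064 and 12693 CPM and those of differentiating oligodendrocytes at 340, 865, 1577 and 2213 CPM. The summed astrocyte markers were at 1517, 1220, 511 and 800 CPM. Replicate 1 was highest in *Gpd2*, *Got1*, *Mdh1*, *Mdh2* and *Slc25a11* in every group. In Ctr-OPCs it was lowest in both oligodendroglial sums and highest in the astrocyte sum. Single markers did not all follow their sums: *Gpr17* was at 448, 1778, 4160 and 4831 CPM in Ctr replicates 1 to 4, but *Olig1* at 985, 1098, 977 and 929. Most of the astrocyte sum was *Slc1a3* (753, 653, 251 and 420 CPM) and *Aldoc* (416, 311, 156 and 229 CPM), the latter also a glycolysis gene. The part of cell composition in the litter differences was not tested.

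**Figure D5:**
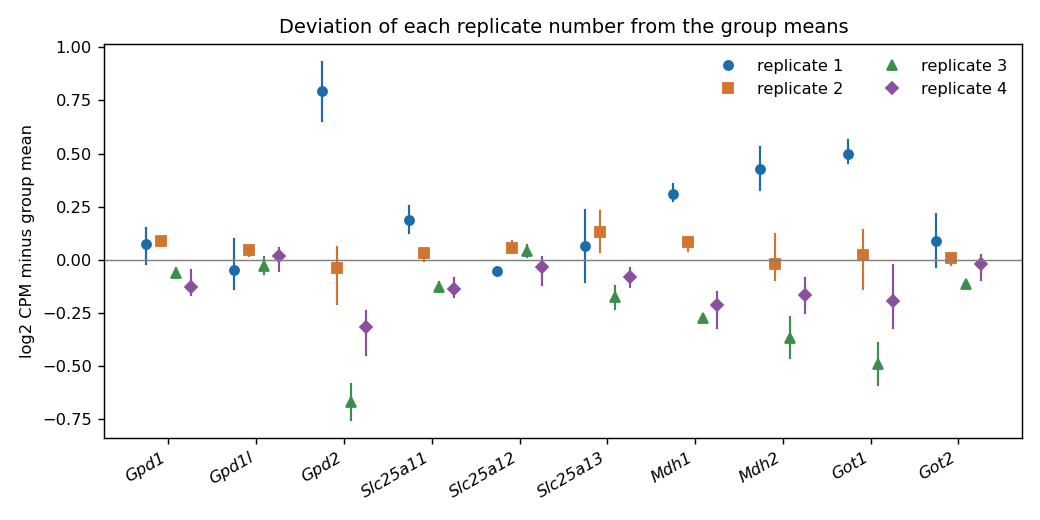
Deviation of each replicate number from its group means in log2 CPM (y axis) for each gene, with the point for the mean over the 2 or 3 groups that have the library and the line for the lowest to highest group. *Gpd2*, *Got1*, *Mdh2* and *Mdh1* spread widely by replicate, from 0.80 to -0.67 for *Gpd2*, while *Slc25a12* stays within 0.12 of 0.

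Genes around the shuttles were looked at by list. Of all genes tested, 31.3% passed with IFN-γ (16% higher and 15.3% lower, median log2 difference -0.01), and the counts of each list are to be read against these shares. Of 17 genes of glycolysis and lactate dehydrogenase, the source of cytosolic NADH and its other outlet, 8 rose with IFN-γ and 0 fell, with a median log2 difference of 0.27 (1 of 17 without the replicate block). *Pfkp*, a phosphofructokinase, rose by 1.35 ± 0.14 (SE, adjusted p = 4.45e-05, edgeR), from 38.5 ± 10.3 to 95.3 ± 7.20 CPM. *Aldoc*, *Aldoa* and *Gapdh* rose by 0.88 ± 0.15, 0.42 ± 0.07 and 0.40 ± 0.07. *Gapdh* makes the NADH that the shuttles carry, and *Aldoc* is also on the astrocyte list. With dexamethasone, where 1.57% of all genes passed, 1 of the 17 rose, *Aldoc*, by 0.98 ± 0.17 (adjusted p = 0.0163), a call lost without the block and without Dexa replicate 1 or 2 or Ctr replicate 2 or 4.

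Of 16 genes of the TCA cycle, which shares *Mdh2* with the shuttle, 3 passed with IFN-γ (0 without the block), a smaller share than the 31.3% of all genes, and the median log2 difference was 0.08. *Cs*, citrate synthase, rose by 0.29 ± 0.05 and *Sdhd*, a succinate dehydrogenase subunit, by 0.22 ± 0.05, while *Suclg2*, a succinyl-CoA ligase subunit, fell by 0.25 ± 0.08. Among other mitochondrial carriers, 13 of 14 could be tested, 4 rose and 2 fell (1 call without the block), with a median of 0.04. The glutamate carrier *Slc25a22* rose by 0.43 ± 0.12 and the pyruvate carrier subunit *Mpc1* by 0.39 ± 0.06. The second glutamate carrier *Slc25a18* fell by 0.62 ± 0.10.

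Glycerol 3-phosphate, the product of GPD1, also enters lipid synthesis, and 4 of the 16 testable genes of that list of 17 passed with IFN-γ (2 without the block), a smaller share than the 31.3% of all genes, with a median log2 difference of -0.05. The acyltransferase *Gpat3* rose by 3.10 ± 0.33, from a level of 0.24 ± 0.116 CPM that rests on few reads, to 2.28 ± 2.41 CPM. The lipin *Lpin3* rose by 1.68 ± 0.23 and the phosphatidylglycerol phosphate synthase *Pgs1* by 0.43 ± 0.08. *Lpin3* also rests on few reads, at 0.145 to 0.869 CPM in Ctr and 0.522 to 3.11 CPM with IFN-γ, and its groups overlapped. *Dgat2*, which completes triacylglycerol, fell by 0.41 ± 0.08, from 12.4 ± 0.700 to 9.35 ± 0.593 CPM without overlap.

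Of 12 genes of glutamate and aspartate metabolism, the amino acids moved by the carriers, 3 rose and 3 fell with IFN-γ (1 call without the block), with a median of 0.09. *Nat8l*, which makes N-acetylaspartate from aspartate, fell by 0.40 ± 0.08 and *Psat1*, of serine synthesis, by 0.23 ± 0.05, both without overlap between groups. *Aspa*, which cleaves N-acetylaspartate, rose by 1.03 ± 0.28 from 0.705 ± 0.976 CPM. It rests on few reads, 2 to 79 in the Ctr libraries and 10 to 102 with IFN-γ. The groups overlapped, at 0.0652 to 2.15 CPM in Ctr and 0.348 to 3.08 CPM with IFN-γ. With dexamethasone 1 of the 12 rose, glutamine synthetase (*Glul*), by 0.59 ± 0.12 (adjusted p = 0.048, edgeR), from 322 ± 92.3 to 527 ± 135 CPM. This call, close to the threshold, was lost without the block and without any one of 8 libraries, which are the 4 Ctr libraries, Dexa replicates 1 and 2 and IFN-γ replicates 2 and 3. In the other lists dexamethasone gave 0 calls by edgeR and by DESeq2, with 3, 4 and 0 genes at an unadjusted p under 0.05 in the TCA cycle, the lipid list and the carriers.

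The genes whose pattern over the 11 complete libraries was most like that of *Gpd1*, among 12201 genes with a mean of at least 100 reads, were *Zbtb16*, *Synpo2l*, *Lrrc8a*, *Ak3* and *Qpctl*, with Pearson correlations of log2 CPM of 0.96, 0.96, 0.95, 0.95 and 0.95. These correlations are across libraries of 3 groups and are a description. *Zbtb16*, a zinc finger transcription factor, was at a mean of 21.4 CPM in Dexa, 8.38 in Ctr and 5.69 in IFN-γ. *Ak3*, the mitochondrial adenylate kinase, was at 224, 134 and 107 CPM in the same order.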

How the data were processed

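Per the labels, RNA was depleted of ribosomal RNA, made into stranded libraries and sequenced from both ends, and the submitters' processing notes name STAR, Salmon 0.8.2 and DESeq2. The authors deposited, for each library, a Salmon table with an expected count and a TPM value per transcript. They also deposited tables of their own DESeq2 comparisons (fold changes and p-values), which were not used here. How reads shared by related transcripts or by opposite strands were counted is not given in the sources used here beyond Salmon's own assignment.

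Expected counts were summed per gene with the GENCODE M21 annotation (GRCm38) and rounded, since the study's tables name transcripts only. CPM were scaled by TMM factors. Genes were kept where 4 or more libraries reached 10 counts, and were fitted with edgeR 4.0.16 (R 4.3.3) by the quasi-likelihood test on all 11 complete libraries together, with group and replicate number, and p-values were adjusted by Benjamini-Hochberg over all genes tested at a threshold of 0.05. The study's methods name DESeq2 (1.42.0 here) without a formula, and it was run as an alternative. SEs are the log2 fold change over the root of F. Deviations from group means correlated at 0.39 to 0.70 between libraries of one replicate number (10 pairs, different litters per the labels) and at -0.59 to 0.46 between others, so the numbers pair the libraries. No replicates agreed within sampling noise (chi-square per degree of freedom 23.8 to 230). Counts were also simulated for IFN-γ against Ctr over 17919 genes with 200 changed. There the test recovered 55.2% of genes changed 1.5-fold, 81% of 2-fold and 93.9% of 4-fold. Of the calls 8.28% were false, more than the threshold of 0.05 allows. In the data 5606 genes were called, far more than the 200 changed in the simulation, so these rates need not hold for the data.

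Shares were tested with exact permutation tests (scipy 1.17.1). The members and lists were chosen with earlier results of these data known. The genes named were the members, up to 4 called genes with the smallest p per list and comparison, the 5 genes most like *Gpd1* and the treatment checks. Some items named by this rule are not reported here. The alternatives were other tools, scalings and filters, no block, and each library left out. Duplicates made by PCR cannot be recognised in these tables, so precision covers counting error and the spread between litters.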

Additional observations from a re-analysis of the deposited data

How the results depend on the processing

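The replicate block decides most calls with IFN-γ. Without it 3 of 10 members passed by edgeR and 4 by DESeq2, against 7 with it, and 1513 genes in all against 5606 (5238 by DESeq2 with the block, 2302 without). *Gpd1*, *Slc25a13* and *Got2* passed in all 3 of these other fits. With dexamethasone 22 genes passed without the block against 282 (460 by DESeq2 with the block, 98 without, 642 with no filter on low counts and 1569 in a fit of the 2 groups alone). Between the treatments 2 of the 8 tested members passed without the block by either tool, against 5, and 1571 genes against 6045 (2345 by DESeq2 without the block). For the lists, calls with IFN-γ without the block by edgeR and DESeq2 were 1 and 2 in glycolysis, 0 and 0 in the TCA cycle, 2 and 2 in the lipid list, 1 and 2 among the carriers (3 in a fit of the 2 groups) and 1 and 3 in glutamate and aspartate metabolism. With dexamethasone they were 0 and 0 in glycolysis (3 with no filter, 5 in the 2-group fit) and in glutamate and aspartate metabolism, where 0 also passed with DESeq2 size factors. The 2-group fit called 2 in the TCA cycle, 2 in the lipid list and 1 carrier, and no filter called 1 in each of the first pair. The cause of these changes was not tested.

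Leaving out each library in turn gave 6 to 7 of 10 members with IFN-γ and, of the 8 tested members, 0 with dexamethasone and 4 to 5 between the treatments. The lists gave 8 to 9 calls in glycolysis, 2 to 4 in the TCA cycle, 4 to 5 in the lipid list, 3 to 6 carriers and 2 to 6 in glutamate and aspartate metabolism with IFN-γ. Carriers dropped to 3 without Ctr replicate 2, Ctr replicate 3 or IFN-γ replicate 3, and glutamate and aspartate metabolism to 2 without Ctr or IFN-γ replicate 2 and to 3 without Ctr replicate 1. With dexamethasone the glycolysis, TCA cycle, lipid and glutamate and aspartate lists each gave 0 to 1.

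Directions turned only for members that did not pass. With dexamethasone these were, without the block by edgeR and DESeq2, *Gpd2* (0.0776 and 0.0738), *Mdh2* (0.0732 and 0.0720) and *Got1* (0.0571 and 0.0556), and also *Slc25a12* (-0.0148 with no filter, -0.0021 in the 2-group fit, and -0.0047 to 0.0437 with a library left out, the lowest without Dexa replicate 4), *Mdh1* (-0.0104 with no filter, -0.0184 with all 12 libraries) and *Mdh2* (-0.0710 to 0.0198, the highest without Ctr replicate 2). Between the treatments *Slc25a11* was at -0.000195 by DESeq2 without the block and *Mdh2* ran from -0.0742 to 0.0428, the highest without IFN-γ replicate 2. Scaling by library totals, added after seeing the data, changed no member's call. The differences in share with IFN-γ, -6.97 points for *Gpd1*, -2.80 for *Slc25a12* and 7.82 for *Mdh1*, gave an exact p of 0.125 when paired, the smallest that 4 pairs allow, and ran from -7.84 to -5.55, -3.27 to -2.42 and 6.95 to 8.94 with a library left out, where no p under 0.05 is possible. With 3 Dexa libraries, small differences with dexamethasone are the least well measured.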
